A study of Mus musculus with 4 samples.

Results

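The comparison was between natural killer (NK) cells of wild-type (WT) mice sampled in a tumor and in bone marrow. The cells were chosen by measured values, so that a barcode was taken as an NK cell when it held at least 200 genes and at most 10% mitochondrial transcripts, at least 1 UMI (unique molecular identifier, a tag for 1 captured RNA molecule) of Ncr1 or Klrb1c, at least 1 UMI of Klre1 or Klrd1, no UMI of Cd3d, Cd3e or Cd3g, and no UMI of Cd79a. Of 41851 kept barcodes in the 4 libraries of the series, 1552 were WT NK cells, 1508 in the tumor and 44 in the bone marrow. These 8 genes chose the cells, so their levels are a description: Ncr1 stood at 210 and 231 CPM (its UMIs scaled to the sum over all NK cells of the library) in tumor and bone marrow, Klrb1c at 367 and 741, Klre1 at 479 and 755, and Klrd1 at 826 and 660.

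Each library held CD45+ (blood-lineage) cells pooled from 3 mice and loaded on a 10x Genomics Chromium instrument. WT mice were S100a8fl/fl Vav-Cre-/-, so they carried the floxed S100a8 allele without the recombinase, and knockout (KO) mice were S100a8fl/fl Vav-Cre+/-, with Cre under the Vav promoter, which is active in blood-forming cells. Bone marrow came from tumor-free mice and the other libraries from LLC tumors, LLC being Lewis lung carcinoma, a mouse lung cancer line. With 1 library per genotype and tissue there was no replicate and no test was made, and every interval below is a 95% interval for counting error only. Tissue cannot be told apart from tumor bearing, from library, or from software, because the file headers name Cell Ranger 3.1.0 for bone marrow and 6.0.2 for tumor, and the feature sets differ. Levels were therefore taken over the 29814 gene symbols that both feature sets share.

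NK cells are innate lymphocytes that kill stressed, infected or transformed cells by releasing perforin, which opens membranes, and granzymes, the proteases that then enter the target. Inhibitory receptors for MHC class I, among them the mouse Ly49 family, hold them back, and activating receptors such as NKG2D and NKp46 (the product of Ncr1) set them off. NK cells arise in the bone marrow, leave it as they mature under the control of sphingosine phosphate receptors and chemokine receptors, and are known to take on features of tissue-resident lymphocytes in tumors, where TGF-beta and low oxygen are common.

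Gzmc, among the genes with the highest ratios of tumor over bone marrow, lies in a cluster of granzyme genes on mouse chromosome 14, and the bases before the start of 4 of them are shown because the results below describe this family. Each sequence is the 250 bases before the RefSeq start in GRCm38.p6, read 5′ to 3′ on the gene's strand, which is the minus strand for all 4. Capitals mark TGACGTCA (a cAMP response element) in Gzmc, TGAGTCA (an AP-1 element read on the reverse strand) in Gzmb, and the 8 bases that align to the element of Gzmc in Gzmd and Gzme. The windows are chr14:56262335-56262584 (Gzmb), chr14:56234658-56234907 (Gzmc), chr14:56132594-56132843 (Gzmd) and chr14:56120626-56120875 (Gzme).
Gzmb: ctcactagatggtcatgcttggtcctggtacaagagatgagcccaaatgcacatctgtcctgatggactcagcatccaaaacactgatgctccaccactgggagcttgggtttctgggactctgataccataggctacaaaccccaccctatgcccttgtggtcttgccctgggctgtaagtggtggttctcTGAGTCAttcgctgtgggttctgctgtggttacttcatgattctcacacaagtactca
Gzmc: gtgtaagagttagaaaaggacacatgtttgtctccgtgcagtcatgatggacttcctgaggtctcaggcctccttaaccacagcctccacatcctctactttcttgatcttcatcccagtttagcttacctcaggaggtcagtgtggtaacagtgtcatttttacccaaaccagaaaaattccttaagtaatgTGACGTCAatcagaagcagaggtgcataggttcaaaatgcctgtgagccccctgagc
Gzmd: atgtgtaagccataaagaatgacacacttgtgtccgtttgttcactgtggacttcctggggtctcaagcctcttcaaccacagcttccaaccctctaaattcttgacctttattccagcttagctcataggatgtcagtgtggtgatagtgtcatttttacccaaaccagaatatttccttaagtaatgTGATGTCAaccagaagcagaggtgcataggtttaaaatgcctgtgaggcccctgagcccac
Gzme: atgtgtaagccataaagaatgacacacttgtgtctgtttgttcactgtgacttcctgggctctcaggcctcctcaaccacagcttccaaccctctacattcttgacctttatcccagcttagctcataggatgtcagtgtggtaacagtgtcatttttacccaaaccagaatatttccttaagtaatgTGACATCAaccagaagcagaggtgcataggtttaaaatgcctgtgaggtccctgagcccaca

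The Gzmc window was 80.8% identical to that of Gzmd and 81.2% to that of Gzme, and the last 2 were 94.8% identical to each other, whereas Gzmb and Gzmc shared 44.8%. Counted from 1 at the 5′ end of the element in Gzmc, Gzmd differs from it by C4T and Gzme by G5A. The element is intact in the windows of Gzmf and Gzmg too, 2 other genes of the cluster. Their levels, given below, were low in the WT tumor and higher in the KO tumor. Whether the element bears on any of these levels was not tested. Searched on both strands, TGACGTCA was found in 508 of 32851 RefSeq promoter windows of this length (1.55%), TGACTCA in 1466 (4.46%) and ACGTG, the core of hypoxia response elements, in 5444 (16.6%). Among the 15 genes named below as most raised in the tumor, 12 had a window that was searched. Of these, 1 held the first element (Gzmc), none the second and 1 the third (Gadd45b). Crem, on chromosome 18, was left out of this search. Of the 15 most lowered, 13 had a window, with none, 1 (Slfn4) and 1 (Adpgk) in the same order. The windows of Vegfa, Hilpda, Nr4a1 and Jun held none of these letters.

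The identity of the cells was checked with 16 NK genes that the gate did not use, among them Nkg7, Prf1, Gzma, Il2rb and Eomes. The median barcode held UMIs of 12 of them in the tumor and of 10 in the bone marrow, and Gzma, a granzyme, had a UMI in 39 of the 44 bone marrow barcodes. NK cells were 13.0% (12.4 to 13.6) of the 11621 kept WT tumor barcodes and 0.552% (0.402 to 0.741) of the 7964 in WT bone marrow. Their depth differed, with a median of 5610 UMIs and 1808 genes per barcode in the tumor and 2191 UMIs and 1235 genes in the bone marrow. The sums compared were 10287683 UMIs against 147079, so 1 bone marrow UMI was worth 6.80 CPM, and a gene with none there was counted as having 3 over the 44 barcodes (20.4 CPM), which makes its ratio a lower bound. At the edge of the gate, 291 tumor and 10 bone marrow NK barcodes held exactly 1 UMI of a receptor pair, with a median of 123 and 64 UMIs of the 16 NK genes, and 1268 and 150 barcodes with UMIs of only the first or the second pair, which stayed outside, held a median of 34 and 9. Between libraries, 21 to 46 barcode sequences recurred, and none of them was an NK barcode in both libraries of a pair.

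RNA of other cells was present on the bone marrow side. All 44 barcodes held UMIs of S100a8 or S100a9, the neutrophil calgranulins, and 5 of them held 95.1% of these UMIs. S100a8 stood at 32.1 CPM in tumor NK cells and 23246 in bone marrow NK cells, beside 152 and 70940 in all barcodes outside the gate, and S100a9 at 69.8 and 21227, beside 299 and 59670. In the KO libraries S100a8 was at 0.962 and 0 CPM and S100a9 at 987 and 19336. The deepest bone marrow barcode (16375 UMIs, 11.1% of the sum) carried 4336 of the S100a8 and S100a9 UMIs and 211 UMIs of the 16 NK genes. Another barcode of 6529 UMIs carried all 206 UMIs of Prss34 and all 109 of Mcpt8, both basophil proteases, beside 108 UMIs of the NK genes and 36 of Gzma. Summed neutrophil genes (13) came to 151 CPM in tumor and 58669 in bone marrow NK cells, mast cell and basophil genes (7) to 15.3 and 2590, dendritic genes (10) to 3243 and 40.8, and macrophage and monocyte genes (14) to 2199 and 952, with 11 of the 14 at 0 in bone marrow. The dendritic sum was carried by MHC class II genes, with Cd74 at 1703 against 13.6 CPM and H2-Aa at 738 against 6.80, and the defining macrophage gene Cd14 was at 179 against 0. In barcodes outside the gate the dendritic sums were 16149 and 905 CPM and the macrophage sums 8309 and 2871. A stricter bar, which removed barcodes with fewer than 5 UMIs of the 16 NK genes or with more UMIs of other cell types than of these, kept 1406 tumor and 38 bone marrow barcodes, and its values are given below beside the results it moved most or took across 2-fold. Under it S100a8 stood at 23.3 and 1479 CPM in tumor and bone marrow, S100a9 at 51.1 and 1693, Cd74 at 189 and 20.4, H2-Aa at 72.5 and 10.2, and Cd14 at 46.2 and 0.

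**Figure D1:**
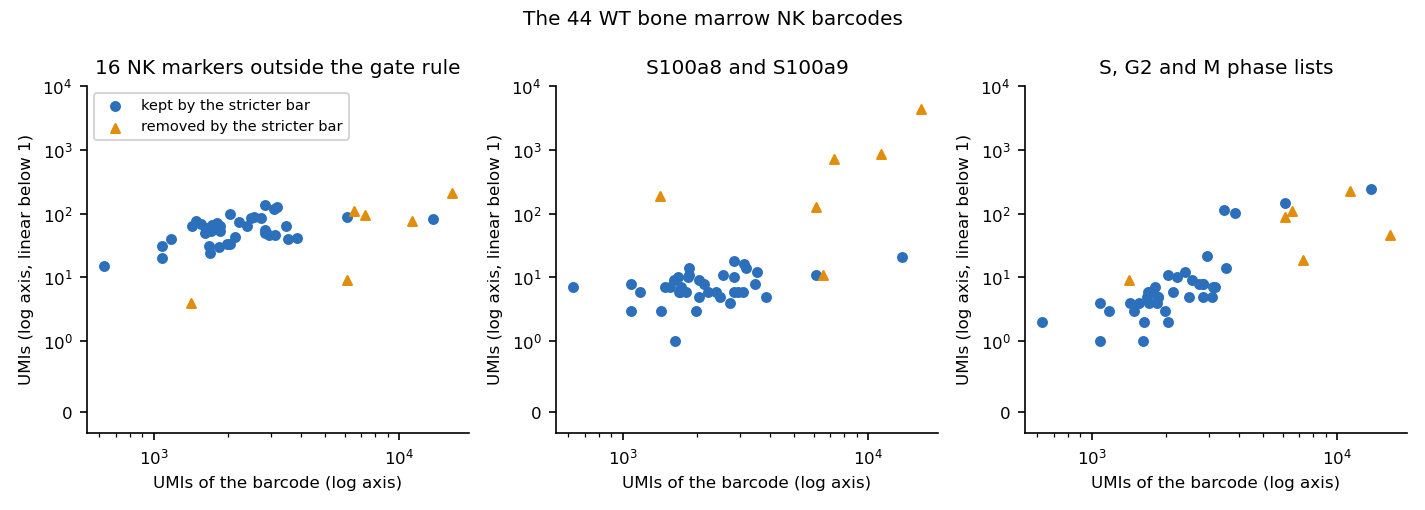
Each point is 1 of the 44 WT bone marrow NK barcodes, placed by its UMI total (x, log axis) and by its UMIs of 16 NK genes, of S100a8 and S100a9, or of the cell cycle lists (y, log axis, linear below 1). Orange triangles are the 6 barcodes removed by the stricter bar, and they include all 5 with 100 or more S100a8 and S100a9 UMIs.

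Of 3826 genes with at least 50 CPM in either tissue, 471 were at least 2-fold higher in tumor NK cells (12.3%) and 1367 at least 2-fold lower (35.7%), and the median log2 ratio of tumor over bone marrow was -0.61. That filter is uneven, since 50 CPM needs 8 UMIs in the bone marrow sum, and 2578 of the 3826 genes had fewer than 20 UMIs there. With at least 200 CPM (30 bone marrow UMIs) 912 genes were left, of which 193 were higher (21.2%) and 208 lower (22.8%), with a median of -0.08. Higher genes made up 25.6% of those past 2-fold under the first filter, 48.1% under the second, and 55.9% after centring on the median of all genes. List medians below are on the uncentred log2 scale and are read against -0.61. Over the same 3826 genes the median was -0.30 in T cells of the 2 WT libraries (Cd3 genes at 2 or more UMIs, none of the NK genes of the gate; 2792 tumor and 106 bone marrow barcodes) and -0.16 in all barcodes outside the gate.

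The KO mice gave a second pair of libraries that shares no cells with the WT pair, with 240 tumor and 86 bone marrow NK barcodes (3116988 and 465866 UMIs). Of 3691 genes at 50 CPM in the KO pair, 407 were at least 2-fold higher in the tumor (11%) and 1277 at least 2-fold lower (34.6%). Of 3242 genes measured in both pairs, 435 were higher in WT and 344 in KO, and 276 were higher in both, which is 63.4% of the WT genes and 80.2% of the KO genes where 10.6% of all these genes were higher in KO. Lower were 978 and 1042, with 783 in both (80.1% and 75.1%, against 32.1%). Of the genes past 2-fold in WT, 1 higher and 6 lower genes were past 2-fold the opposite way in KO. The genotype differs between the pairs, so the KO pair is not a replicate. In both pairs the software and feature sets differed between the tissues in the same way. Their part in the shared counts was not tested.

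**Figure D2:**
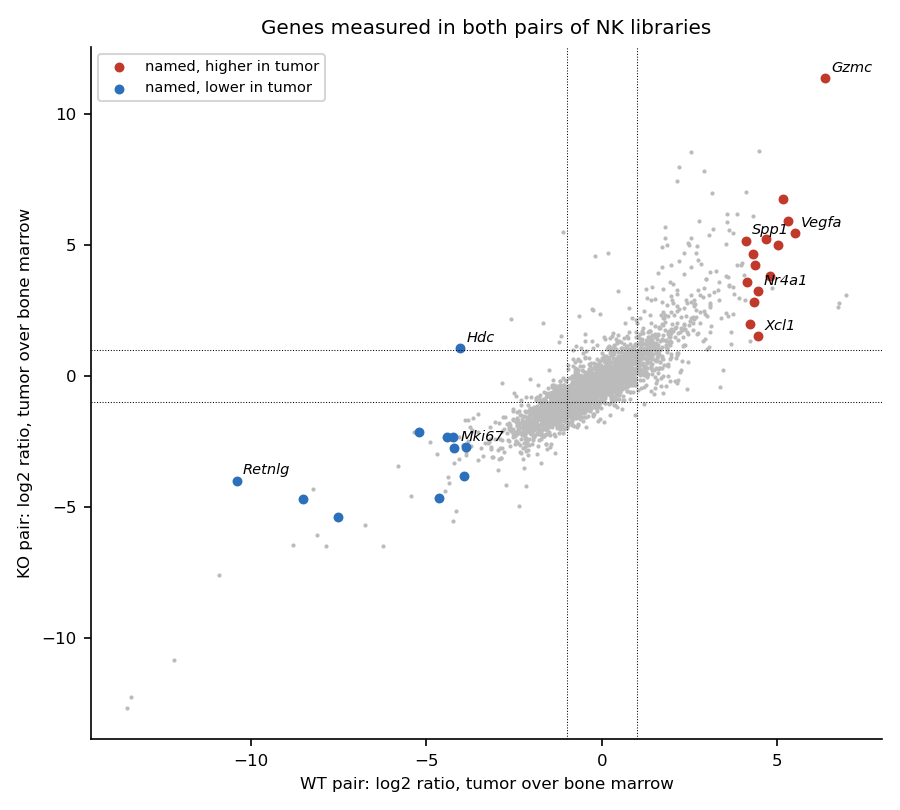
Each point is 1 of 3242 genes measured in both pairs of libraries, placed by its log2 ratio of tumor over bone marrow NK levels in WT (x) and KO (y), with dotted lines at 2-fold and genes without a UMI on a side at their bound. The named higher genes (red) sit in the upper right, and Hdc is the only labelled gene past 2-fold in opposite directions.

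Cd74, H2-Aa, H2-Ab1 and Bcl2a1d had log2 ratios of 6.97, 6.76, 6.75 and 4.13 but did not meet the conditions for naming. The 15 named genes with the highest ratios were Gzmc, Vegfa, Crem, Nme2, Rnasek, Rgs16, Ier5l, Xcl1, Nr4a1, Timm23, Jun, Gadd45b, Tnfrsf18, Rgs1 and Spp1. They had at most 9 UMIs each in bone marrow NK cells and 1440 or more in the tumor, and all 15 were also at least 2-fold higher in the KO pair. All 15 stayed at least 2-fold higher under the stricter bar, with Gadd45b at 37.3-fold, Nr4a1 at 14.3-fold, Jun at 12.8-fold and Spp1 at 10.6-fold or more, on at most 2 bone marrow UMIs each. In the remaining barcodes all 15 were past 2-fold too, with log2 ratios from 1.65 (Vegfa) to 8.38 (Gzmc). Nme2 (7590 against 3 UMIs), Rnasek (2272 against 1) and Timm23 (1440 against 1) are housekeeping genes. Their log2 ratios in the remaining barcodes were 6.12, 7.29 and 4.42. Crem, a cAMP-responsive transcription factor, had 5542 against 2 UMIs and a log2 ratio of 5.81 in the remaining barcodes. Gene models and software versions differ between the tissues, and their part in such ratios was not tested.

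The genes of the killing granule differed unevenly between the tissues. Gzma, the most abundant granzyme of WT NK cells, stood at 5791 CPM in WT tumor and 5888 in WT bone marrow, and at 3127 and 4534 in KO tumor and bone marrow. Its WT levels differed by a log2 ratio of -0.02. Prf1, which encodes perforin, stood at 885 and 653 CPM in WT and at 1172 and 477 in KO, a WT ratio of 1.36 (1.11 to 1.68). Gzmb, the granzyme of activated killer cells, stood at 1722 against 218 CPM in WT and 2063 against 157 in KO. Its WT ratio was 7.92 (5.60 to 11.6), and both tumor libraries lay above both bone marrow libraries. Srgn, the proteoglycan core that holds granzymes in the granule, was 5.84-fold higher (4.39 to 7.95) in WT, at 1867 against 320 CPM. Of the 26 genes of this list 19 were measured, with 8 at least 2-fold higher and 2 lower, beside 12.3% and 35.7% of all genes. The list median was 0.60. The KO median was 1.19 with 12 of 22 higher, and the WT T cell median over the same genes was 0.55.

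Gzmc (ENSMUSG00000079186, chr14:56231441-56234656, minus strand) had the highest ratio of the 15 higher genes. Its 17265 UMIs in WT tumor NK cells (1678 CPM) stood against none in the 44 bone marrow barcodes, so it was at least 82.3-fold higher. In KO it stood at 5642 CPM in the tumor and 2.15 in bone marrow (1 UMI). WT tumor barcodes outside the gate held 92.7 CPM and T cells 14.5 CPM. A Gzmc UMI was found in 508 tumor NK barcodes (33.7%, median depth 5610 UMIs), beside 5.57% of the remaining barcodes of the library (median depth 7062). After each barcode was thinned to 1000 UMIs, 17.9% (15.9 to 19.9) of 1507 tumor NK barcodes and 0 of 43 in bone marrow (up to 8.22%) still held one.

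The neighbors of Gzmc on chromosome 14 were less abundant in WT than in KO tumor NK cells. Gzmd stood at 118 CPM in WT tumor (1214 UMIs) and at 2401 in KO tumor, Gzme at 90.1 and 1132, Gzmf at 23.1 and 3558, and Gzmg at 0.680 and 2639. None of the 4 had a UMI in bone marrow NK cells of either genotype. Gzmd and Gzme were therefore at least 5.79-fold and 4.42-fold higher in the WT tumor, and at least 3.70-fold and 2.82-fold under the stricter bar. The last 300 bases of the transcripts of Gzmd, Gzme, Gzmf and Gzmg are 85.7% to 89.7% identical to each other, so that the split of UMIs among them is uncertain, whereas those of Gzmc are 59% to 61.3% identical to them.

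**Figure D3:**
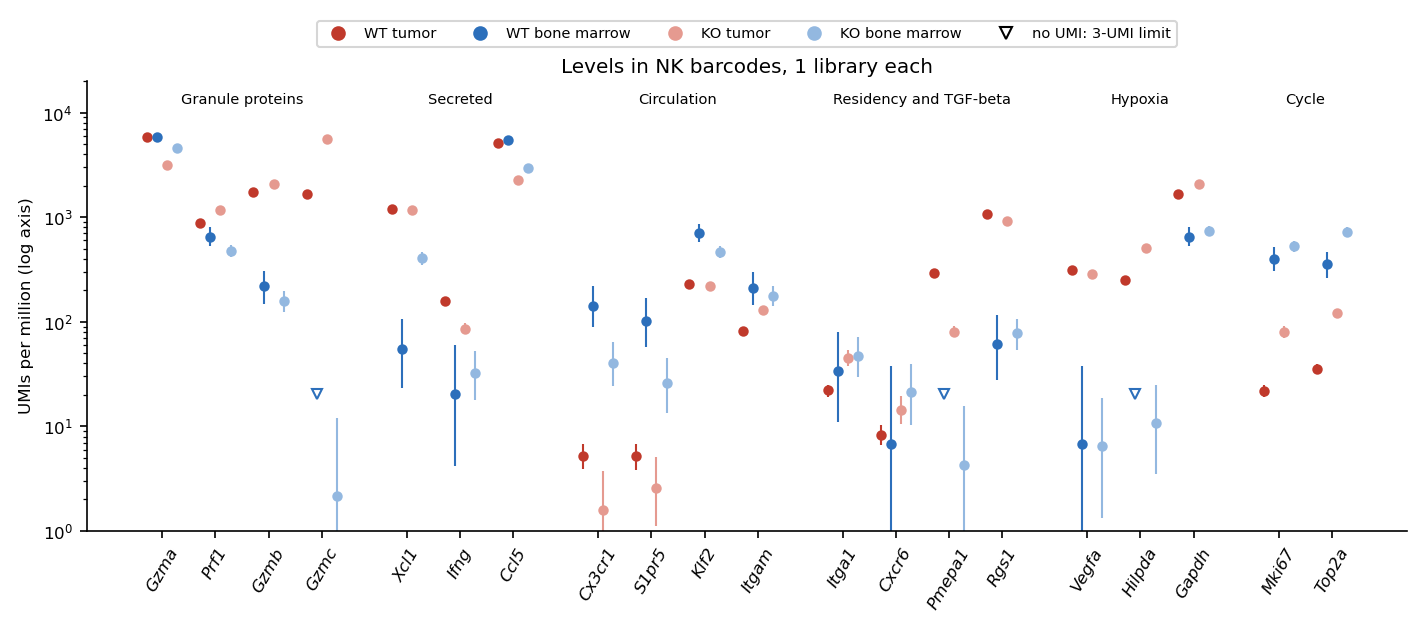
Levels of 20 genes in NK barcodes (y, CPM, log axis) in each of the 4 libraries, with 95% Poisson intervals for counting error only and open triangles where a library had no UMI. Gzma and Ccl5 are high in all 4 libraries. Gzmb, Gzmc, Xcl1, Vegfa and Hilpda are higher in both tumors than in either bone marrow. Cx3cr1, S1pr5 and Mki67 are higher in both bone marrows than in either tumor, with Cx3cr1 and S1pr5 below 50 CPM in KO bone marrow.

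Gzmc UMIs were unevenly spread over the tumor NK cells. The 150 barcodes with the most held 92.9% of its UMIs, and the highest held 731. At 1000 UMIs per barcode, 1238 of 1507 had none (82.2%), 170 had 1 to 4, and 99 had 5 or more (6.57%), with 36 lying at 4 or 5, so the last group is a range and not a type. As a description of these cells, barcodes with 5 or more stood beside those with none at 596 against 3.23 CPM of Gzmd, 636 against 4.85 of Gzme, 970 against 118 of Spp1, 2293 against 1141 of Xcl1 and 697 against 206 of Ly6c2. They stood at 2707 against 8169 CPM of Gzma, 1061 against 8870 of Ccl5, 30.3 against 338 of Klf2 and 131 against 501 of Klra4. Gzmb (1939 against 1998) and Prf1 (970 against 1023) were close in the 2 ranges.

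**Figure D4:**
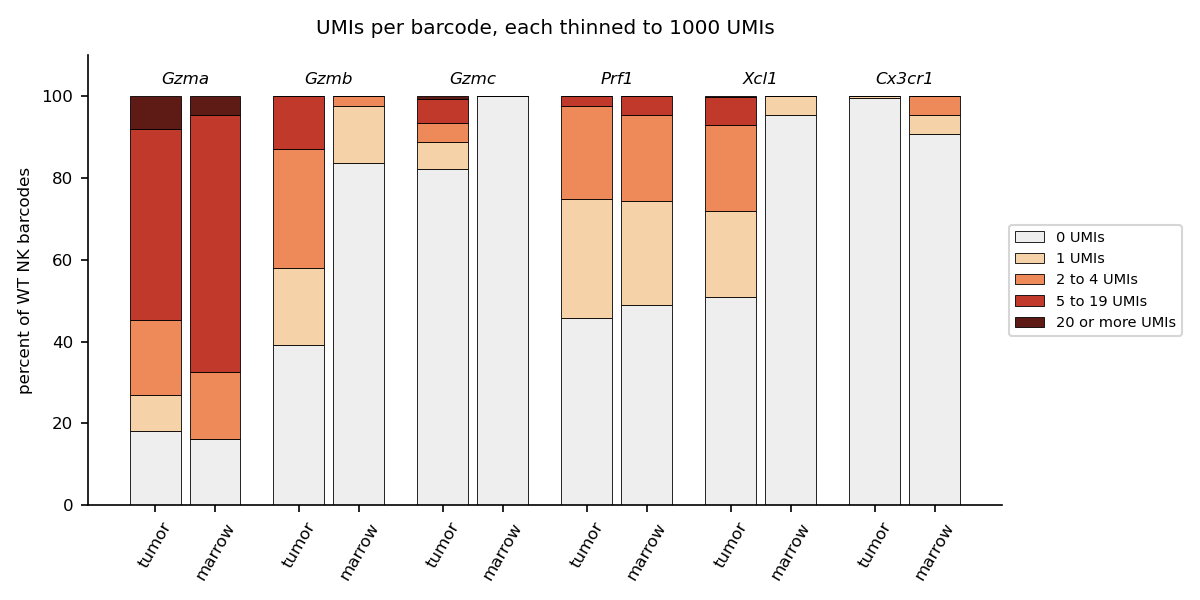
Share of WT NK barcodes (y, percent) by the number of UMIs of 6 genes after each barcode was thinned to 1000 UMIs, for 1507 tumor and 43 bone marrow barcodes. Barcodes with no Gzma UMI make up 18.1% and 16.3%, those with no Gzmb UMI 39.2% and 83.7%, and no bone marrow barcode held Gzmc.

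Other granule genes differed less. Nkg7, a granule membrane protein of killer cells, stood at 2243 and 1373 CPM, a ratio of 1.63. The granzyme inhibitors Serpinb9 (864 against 354 CPM), Serpinb6b (722 against 286) and Serpinb9b (101 against 40.8) were 2.44, 2.53 and 2.48 times higher in the tumor. Rab27a, which docks granules at the membrane, was 6.07-fold lower, at 19.1 against 116 CPM. Lyst, a lysosomal trafficking gene, had a log2 ratio of -1.09 that turned to 2.38 under the stricter bar, where Serpinb6b and Serpinb9b were 1.93 and 1.87 times higher.

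NK receptors moved much as all genes did. Of 23 measured receptors and adaptors 14 were within 2-fold, 2 were higher and 7 lower, beside 12.3% and 35.7% of all genes, and the median of -0.52 lies 0.09 above that of all genes. In KO 2 of 24 were higher and 11 lower. Klrk1, which encodes NKG2D, stood at 423 and 585 CPM, the shared interleukin-2 and interleukin-15 receptor chain Il2rb at 1020 and 1231, and the adaptors Tyrobp and Fcer1g at 2844 and 1666 and at 2508 and 1292. Klrc2, the activating member of the NKG2 family, was 4.85-fold lower (3.65 to 6.33), at 81.4 against 394 CPM in WT and 65.5 against 309 in KO. Its inhibitory counterpart Klrc1 was 2.21-fold lower (1.60 to 2.97), at 139 against 306 CPM. Itga2, the CD49b integrin used to mark mouse NK cells, was 3.33-fold lower at 32.7 against 109 CPM, and Syk, Klrb1f, Klrg1 and Hcst were lower by 2.67, 3.08, 2.54 and 2.01 times. Sh2d2a, a T and NK cell signaling adaptor, was 3.27-fold higher at 534 against 163 CPM, and Klrb1b 2.05-fold higher, or 1.54-fold under the stricter bar.

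None of the 6 measured Ly49 receptors passed 2-fold in WT, where the median was -0.07, or 0.54 above that of all genes. Klra8 (Ly49H) stood at 341 and 388 CPM and Klra4 (Ly49D) at 380 and 313, and the log2 ratios ran from -0.27 (Klra9) to 0.38 (Klra7). In KO all 6 were lower in the tumor, from -0.47 (Klra4) to -1.77 (Klra1), 4 of them past 2-fold. The difference between the pairs was not tested.

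Genes of mature circulating NK cells were lower in the tumor. Of 16 measured, 12 were at least 2-fold lower and 2 higher, beside 35.7% and 12.3% of all genes. The list median was -1.61 in WT, -1.13 in KO (9 of 14 lower), -0.15 in WT T cells and 0.12 in the remaining barcodes. Cx3cr1, the fractalkine receptor of blood NK cells (chr9:119901616-120069879, minus strand), stood at 5.25 against 143 CPM in WT and 1.60 against 40.8 in KO. It was 27.2-fold lower (15.6 to 45.8) in the WT tumor, or 67.6-fold under the stricter bar (2.86 against 194 CPM), and after thinning 0.465% of tumor and 9.30% of bone marrow barcodes held a UMI. S1pr5, the sphingosine phosphate receptor that lets NK cells leave the bone marrow, was 19.8-fold lower (10.4 to 35.6), at 5.15 against 102 CPM in WT and 2.57 against 25.8 in KO. Both genes were low in both tumor libraries and lie on 21 and 15 bone marrow UMIs in WT. Zeb2, a transcription factor of late NK maturation, was 4.50-fold lower (3.39 to 5.85), at 89.2 against 401 CPM, and in KO it stood at 111 against 193. Klf2, which keeps lymphocytes in circulation, was 3.08-fold lower (2.51 to 3.75), at 229 against 707 CPM in WT and 222 against 468 in KO. Itgam, the CD11b integrin, stood at 82.1 against 211 CPM. Prdm1, Cma1, Spn, Sema4a, Itgal, Klrg1 and Ahnak were lower by 2.15 to 6.19 times. The 2 higher members were Gzmb and Irf8, a transcription factor, at 1776 against 517 CPM. Under the stricter bar the list median was -1.84, with 13 of 17 lower, and Zeb2 and Prdm1 were 9.73-fold and 13.9-fold lower.

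Of 18 homing genes 7 were at least 2-fold lower and 2 higher, near the shares of all genes (35.7% and 12.3%), with a median of -0.87. Besides Cx3cr1, S1pr5 and Klf2 the lower genes included Itgal, Ccr1 and Itga4, the integrin chain that binds VCAM-1 (231 against 571 CPM). Cxcr4, the receptor that retains cells in bone marrow, stood at 135 and 265 CPM (log2 ratio -0.97) and Ccr2 at 275 and 449. Ccr7 and Ccrl2 were higher on 1 bone marrow UMI each. With the stricter bar Cxcr4 stood at 141 and 163 CPM, Ccr7 at 20.7 and 10.2, and Ccrl2 at 70.0 and 0.

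Of 9 measured genes on the group 1 innate lymphoid cell (ILC1) and tissue residency list, 8 were at least 2-fold higher and none lower. Of all genes 12.3% were higher in the tumor and 35.7% lower. The list median was 2.16 in WT, 1.82 in KO (7 of 8 higher), 1.22 in WT T cells and 2.36 in the remaining barcodes. The 8 higher members were Xcl1, Rgs1, Rgs2, Cd69, Il21r, Itgb3, Tmem176a and Tmem176b. Rgs1, a regulator of chemokine signaling, stood at 1072 against 61.2 CPM in WT and 924 against 77.3 in KO, a WT ratio of 17.5 (9.23 to 38.3). Cd69, which keeps lymphocytes in tissue, was 4.17-fold higher (1.91 to 11.4) at 170 against 40.8 CPM. After the stricter bar 7 of 7 were higher (median 2.74), and Tmem176a, at 32.0 CPM and no bone marrow UMI, was no longer measured. Of the genes set as ILC1 markers, Tmem176a and Tmem176b were among these higher genes, with log2 ratios of 1.47 and 2.16. The other markers, Itga1, Cxcr6, Cd200r1, Il7r and Zfp683, were low in both tissues and below 50 CPM. Itga1, which encodes CD49a, stood at 22.1 and 34.0 CPM, Cxcr6 at 8.36 and 6.80, Cd200r1 at 3.60 and 40.8, and Il7r at 24.7 and 20.4. Itgae had 20 tumor UMIs, Zfp683 had 2, and neither had any in bone marrow.

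TGF-beta response genes were higher in tumor NK cells. Of 11 measured, 8 were at least 2-fold higher and 1 lower, beside 12.3% and 35.7% of all genes. The list median was 3.20 in WT, 3.03 in KO, 2.66 in WT T cells and 2.51 in the remaining barcodes. Smad7, the feedback inhibitor of the pathway, stood at 437 against 47.6 CPM in WT and 317 against 34.3 in KO. Its WT ratio was 9.17 (4.45 to 22.8). Pmepa1, another feedback gene, stood at 294 CPM against none and was at least 14.4-fold higher, and in KO it stood at 80.5 against 4.29. Tgfb1, the ligand, was 4.55-fold higher (2.80 to 7.97) at 495 against 109 CPM. Skil, Tgif1, Cdkn1a, Jun and Rgs16 were the other higher members, and Smad3, a signal transducer, was 3.34-fold lower. Under the stricter bar the median was 2.49, with 8 of 11 higher and 2 lower, and Cdkn1a stood at 152 against 30.6 CPM. The remaining barcodes hold the myeloid cells of each library, and the part of their RNA in these ratios was not tested.

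Cytokine and chemokine genes split into 2 sets. Xcl1, the ligand that draws cross-presenting dendritic cells (chr1:164931644-164935527, minus strand), stood at 1206 against 54.4 CPM in WT and 1172 against 404 in KO. Its WT ratio was 22.2 (11.2 to 51.3), on 8 bone marrow UMIs, and after thinning 49% of tumor and 4.65% of bone marrow NK barcodes held a UMI. Ifng, which encodes interferon gamma, stood at 157 against 20.4 CPM in WT (3 bone marrow UMIs, ratio 7.72, 2.64 to 37.5) and 85.7 against 32.2 in KO. Spp1, which encodes osteopontin, stood at 353 CPM against none (at least 17.3-fold), Cxcl10 at 138 against none (at least 6.78-fold) and Ccl9 at 93.7 against none (at least 4.59-fold). After the stricter bar Ccl9 stood at 26.7 CPM against none and was no longer measured. These last genes are also myeloid genes, and macrophage and dendritic sums were higher in the same tumor barcodes. The chemokines Ccl5 (5108 and 5439 CPM), Ccl4 (358 and 360) and Ccl3 (147 and 177) were close between the tissues in WT, and Ccl3 stood at 334 against 55.8 in KO. The 11 measured genes had a median of 2.19, with 6 higher and none lower, beside 12.3% and 35.7% of all genes.

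Cytokine receptor and signaling genes went both ways, with 7 of 23 at least 2-fold higher and 4 lower, beside 12.3% and 35.7% of all genes. Their median of -0.02 lies 0.59 above that of all genes. The interleukin-18 receptor chains Il18rap and Il18r1 were 4.29-fold (3.30 to 5.48) and 2.81-fold lower, at 108 against 462 and 107 against 299 CPM. Both were also lower in KO, with log2 ratios of -2.10 and -1.81. Il10ra and Jak3 were 4.49 and 2.98 times lower. Higher were the interferon gamma receptor chain Ifngr1 (1314 against 456 CPM), Stat3 (504 against 129), Il12rb2, Ifnar1, Il21r, and the cytokine feedback genes Cish (92.1 against 27.2) and Socs3, at 173 against none. With the stricter bar 6 of 24 were higher and 6 lower, Il10ra was 8.79-fold lower, and Ifnar1 was 1.69-fold higher.

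Transcription factors were likewise split, with 9 of 29 at least 2-fold higher and 9 lower, beside 12.3% and 35.7% of all genes. Their median was -0.35, or 0.25 above that of all genes. The lineage factors Eomes (192 and 279 CPM) and Tbx21 (79.9 and 102) did not pass 2-fold in WT, while in KO their log2 ratios were -1.70 and -1.14. Lower were Prdm1, Zeb2, Ikzf3, Klf2, Myc, Bach2, Tox, Gata3 and Ets1, the last at 470 against 945 CPM. Higher were Irf8, Ikzf2, Rora, Bhlhe40 (488 against 116), Nfil3, Fosl2 and the NR4A family. Nr4a1, Nr4a2 and Nr4a3, which are induced by receptor signaling, stood at 148 against 6.80, 274 against 34.0 and 230 against 27.2 CPM. Under the stricter bar the list median was -0.73, the 3 stood at 146 against 10.2, 273 against 51.0 and 226 against 40.8 CPM, and Tox was 1.95-fold lower.

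Immediate early genes, which are also induced when tissue is dissociated, were higher in 17 of 26 cases and lower in none. Of all genes 12.3% were higher and 35.7% lower. The list median was 1.71 in WT NK cells, 1.67 in KO, 1.73 in WT T cells and 2.11 in the remaining barcodes. Junb stood at 1954 against 551 CPM, Nfkbia at 1140 against 258 and Jun at 277 against 13.6. Fos (153 and 156 CPM) and Egr1 (40.2 and 61.2) did not pass 2-fold, but Egr1 was 2.08-fold lower under the stricter bar. Heat shock genes had a median of 0.01 with 3 of 11 higher, and -0.12 with none higher under the stricter bar.

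Among activation and checkpoint receptors 7 of 8 measured were at least 2-fold higher and 1 lower, beside 12.3% and 35.7% of all genes. The list median was 2.37 in WT, 2.46 in KO, 2.80 in WT T cells and 3.91 in the remaining barcodes. Tnfrsf9, which encodes the costimulatory receptor 4-1BB, was 3.29-fold higher (2.13 to 5.39) at 447 against 136 CPM. Tnfrsf18, which encodes GITR, stood at 254 against 13.6 CPM in WT and 196 against 49.4 in KO, a WT ratio of 18.6 (5.16 to 154) on 2 bone marrow UMIs. Cd274, which encodes PD-L1, stood at 87.0 against 13.6 CPM, also on 2 bone marrow UMIs. Lag3 was lower in WT, at 24.6 against 54.4 CPM on 8 bone marrow UMIs, but its log2 ratio was 0.15 after thinning and 1.27 in KO. Pdcd1, Tigit and Havcr2 had 99, 67 and 66 UMIs in the tumor and none in bone marrow, below 50 CPM on both sides. Under the stricter bar the list median was 1.26, with 7 of 11 higher and 2 lower, Cd274 stood at 84.5 against 20.4 CPM, and Lag3 was 1.98-fold lower.

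Hypoxia genes were higher in part. Vegfa, the vascular growth factor (chr17:46016993-46032369, minus strand), stood at 309 against 6.80 CPM in WT and 285 against 6.44 in KO, a WT ratio of 45.5 (8.16 to 1797) on 1 bone marrow UMI. It was high in both tumor libraries, and the remaining barcodes had a log2 ratio of 1.65. Hilpda, a lipid droplet protein induced by hypoxia, stood at 252 CPM against none in WT and 512 against 10.7 in KO. Of the glycolytic enzymes, Gapdh (1657 against 653 CPM), Tpi1 (228 against 88.4) and Eno1 (442 against 218) were at least 2-fold higher, and Ldha (559 against 286) and Aldoa (523 against 286) were not. Slc2a3, a glucose transporter, and Hk2, a hexokinase, were lower in WT, at 18.3 against 88.4 and 24.4 against 54.4 CPM. The 21 measured genes had a median of 0.34 with 6 higher and 2 lower in WT, and 1.21 with 12 higher and none lower in KO. Of all genes 12.3% were higher and 35.7% lower in WT, and 11% and 34.6% in KO. With the stricter bar Gapdh was 3.90-fold and Aldoa 3.09-fold higher, Eno1 1.93-fold, Slc2a3 was 3.20-fold lower, and Hk2 had a log2 ratio of 0.89. Genes of the respiratory chain had a median of -0.08, with 2 of 38 higher and 5 lower.

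Cell cycle genes were lower in the tumor. Of 18 measured S phase genes 16 were at least 2-fold lower and none higher (median -2.23), and of 22 G2 and M phase genes 19 were lower and 1, Cenpa, higher (median -2.70). Of all genes 35.7% were lower and 12.3% higher. In KO the medians of the 2 lists were -1.86 and -2.32. Mki67, the proliferation marker, stood at 21.8 against 401 CPM in WT and 79.6 against 526 in KO, a WT ratio of 18.4 (13.6 to 24.6) in favor of bone marrow. Top2a stood at 35.3 against 354 CPM and Hmgb2 at 482 against 2672. After thinning, 13 of 43 bone marrow NK barcodes (30.2%, 17.2 to 46.1) and 138 of 1507 in the tumor (9.16%, 7.75 to 10.7) held 5 or more UMIs of these genes. On the bone marrow side 8 of the 44 barcodes held 82.0% of the 1313 cycle UMIs, and the stricter bar keeps 4 of these 8. Under that bar the medians were -2.29 and -2.15, and Cenpa was 1.78-fold higher. Cycle genes were also lower in tumor T cells (-1.18 and -1.14) and in the remaining barcodes (-2.14 and -2.50).

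Camp and Ngp had the log2 ratios -13.5 and -13.4 but did not meet the conditions for naming. Of the 15 named genes with the lowest ratios, Retnlg, Mmp9, Mmp8, Fpr2 and Slfn4 are neutrophil or monocyte genes. Prss34 and Mcpt8 are basophil genes, Hdc is on the mast cell and basophil list, and Hist1h2ap, Mki67 and Prc1 are cycle genes. The others were Cx3cr1, Adpgk, Actn1 and Syne1. Of the WT bone marrow barcodes outside the gate, 41.2% held a UMI of Hdc, beside 4.02% for Prss34 and 4.08% for Mcpt8. Retnlg stood at 2.92 against 3977 CPM, and under the stricter bar at 1.60 against 224. Prss34, Mcpt8 and Hdc had no UMI left in bone marrow NK cells under that bar. The other 12 stayed at least 2-fold lower, among them Adpgk at 8.21-fold, Syne1 at 6.43-fold and Prc1 at 5.74-fold. Of these 12, Fpr2, Actn1, Mmp9 and Mmp8 then rested on 2, 3, 4 and 4 bone marrow UMIs, and Slfn4, Syne1 and Prc1 on 6 each. Without that bar, Adpgk, Actn1 and Syne1 in bone marrow NK cells stood at 0.511, 0.674 and 0.550 of the level outside the gate. Hist1h2ap, a replication histone, stood at 108 against 2298 CPM. Adpgk, a glucokinase that uses ADP, had a log2 ratio of -5.59 in the remaining barcodes.

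Interferon response genes were split in WT, where 12.3% of all genes were at least 2-fold higher and 35.7% lower. Of 18 type I interferon genes 4 were at least 2-fold higher (Isg15, Irf7, Bst2 and Zbp1) and 8 lower, with a median of -0.86 in WT and -0.31 in KO, and 5 of 14 were higher and 6 lower in WT under the stricter bar. Isg15, a ubiquitin-like protein, stood at 159 against 40.8 CPM in WT. Of 19 MHC class I and interferon gamma genes 3 were higher (H2-D1, H2-Q7 and the immunoproteasome gene Psmb8), 1 was lower (Tap2, a peptide transporter), and the median was 0.41, or 0.08 under the stricter bar. H2-D1 stood at 3161 against 1387 CPM, H2-K1 at 3462 against 2298, and B2m at 3094 against 2176.

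Survival genes also went both ways, with 7 of 16 at least 2-fold higher and 3 lower, beside 12.3% and 35.7% of all genes. Their median of -0.12 lies 0.48 above that of all genes. Bcl2a1b and Bcl2a1d, anti-apoptotic BCL2 relatives with near-identical copies, had log2 ratios of 3.73 and 4.13, or 4.88 and 3.28 under the stricter bar. Bcl2l11, which encodes the pro-apoptotic protein BIM, stood at 597 against 170 CPM, and Bcl2 itself at 238 and 360. Gadd45b, a stress gene, stood at 403 against 20.4 CPM on 3 bone marrow UMIs. Cflar, an inhibitor of death receptor signaling, Trp53inp1 and Bak1 were lower, with log2 ratios of -2.04, -1.86 and -1.13.

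**Figure D5:**
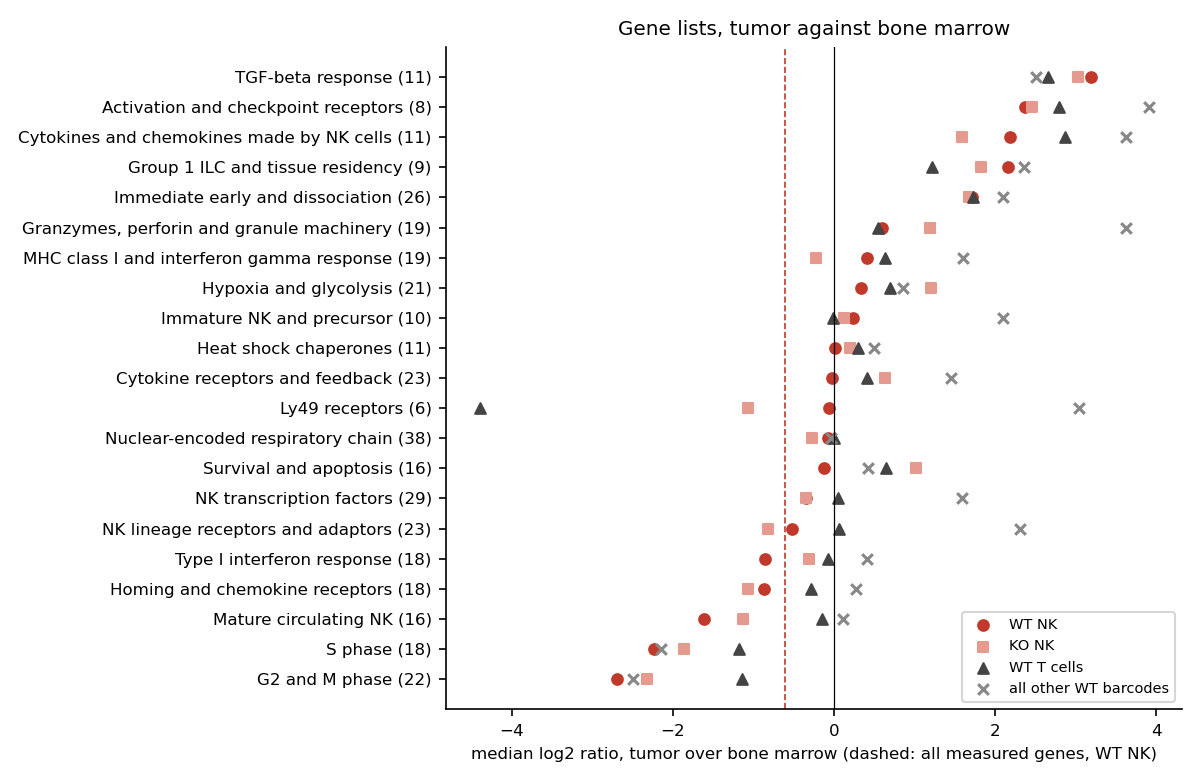
Median log2 ratio of tumor over bone marrow (x) for 21 gene lists (y, number of WT-measured genes in parentheses) in WT NK cells, KO NK cells, WT T cells and all other WT barcodes, with a dashed line at the WT median of all measured genes (-0.61). TGF-beta response genes are at the top with 3.20 and G2 and M phase genes at the bottom with -2.70. The sets share libraries in WT, so the medians are side by side and were not tested against each other.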

How the data were processed

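The authors deposited unnormalized UMI counts of each gene in each barcode. Per the file headers the bone marrow matrices came from Cell Ranger 3.1.0 and the tumor matrices from 6.0.2. Per the submitters' processing notes, Cell Ranger 6.1.2, Seurat 4.3.0 and R 4.2.1 were used with mm10 or GRCm38. No barcode held fewer than 500 UMIs. From these counts, UMIs of gated barcodes were summed per library over shared symbols and scaled to CPM. Sums carry exact Poisson intervals, ratios exact conditional binomial intervals, and shares Clopper-Pearson intervals (95%), which treat UMIs as independent. A gene was called past 2-fold among those with at least 50 CPM on either side.

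The members and gene lists were chosen with earlier results of these data known. The named genes are the 15 highest and 15 lowest ratios among genes with at least 50 CPM, at least 20 UMIs and at least 0.5 of the level outside the gate on the higher side. Left out were the gate's genes, mitochondrial, ribosomal, hemoglobin, receptor variable, sex-linked and unnamed genes, and S100a8 and S100a9. Up to 8 members of each list, and members within 2-fold, are named beside them. Doublets were kept in the main result. Scrublet (scanpy 1.11.5) marked 120 tumor and 6 bone marrow WT NK barcodes, using the rate expected for its size (9.62%) in the WT tumor library, where the automatic threshold marked 0%. The stricter bar was added after seeing the data. The interval and thinning code was tested on simulated data (Python 3.11.15, numpy 2.4.6, scipy 1.17.1, pandas 2.3.3). Coordinates are from GENCODE M21 (GRCm38) and promoter windows from RefSeq. A listed gene is not reported here.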

Additional observations from a re-analysis of the deposited data

Results flagged for a closer look

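Of the genes measured in both pairs, 6 were at least 2-fold lower in tumor NK cells of WT mice and at least 2-fold higher in those of KO mice. Given here are 4 of them, and the difference between the pairs was not tested. Hdc, the histamine-forming enzyme, had a log2 ratio of -4.05 in WT (127 tumor and 30 bone marrow UMIs) and 1.08 in KO (184 and 13). Hk2, a hexokinase, had -1.16 in WT (251 and 8 UMIs) and 1.55 in KO (196 and 10). Rsad2, which encodes the antiviral protein viperin, had -1.11 in WT (259 and 8 UMIs) and 5.50 in KO (302 and 1). Ccr1, a chemokine receptor, had -1.22 in WT (301 and 10 UMIs) and 1.30 in KO (263 and 16). In WT, Hdc had no bone marrow UMI left under the stricter bar, and the direction of Hk2 turned under that bar. The WT direction of Rsad2 turned with 2 UMIs for each receptor pair.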

How the results depend on the processing

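No paired analysis was possible because each genotype and tissue has 1 library, and for the same reason no library could be left out. Counts of genes past 2-fold were 471 higher and 1367 lower. At 20 CPM they were 708 and 2669, with no minimum 812 and 3632, at 200 CPM 193 and 208, and after centring 868 and 686. Measured by the KO libraries, a choice added after seeing the data, 746 were lower. The median of all genes (-0.61) was -0.083 at 200 CPM, 0 after centring, -0.46 with abundant genes left out of the total, -0.73 after thinning, -0.72 with a bar on other lineages, -0.71 without marked doublets, -0.34 measured by the KO libraries and -0.79 under the stricter bar (also added). The share of higher WT genes that were higher in KO (63.4%) was 58.6% without abundant genes, 47.3% after thinning, 53.0% at 20 CPM, 47.0% with no minimum and 71.7% at 200 CPM. For lower genes (80.1%) it was 71.1% without abundant genes, 66.5% after centring, 67.5% after thinning, 75.1% with 2 UMIs for each receptor pair, 74.8% with the bar, 73.6% without doublets, 75.4% at 20 CPM, 85.8% at 200 CPM, 65.6% with no minimum, 77.0% without the deepest bone marrow barcode (added) and 75.3% under the stricter bar. The share of NK cells in the WT tumor (13.0%) was 10.5% with 2 UMIs per pair, 12.1% with either bar and 5.27% when the gate was applied after thinning, which gave 0.365% in WT bone marrow, 0.624% in KO tumor and 0.584% in KO bone marrow. Directions that turned were those of Lyst (0.13 as a mean over barcodes, 0.33 thinned, 1.47 with the bar, 1.36 without doublets, 2.38 under the stricter bar), of Lag3 (0.15), Mcm3 (0.039), Slbp (0.032) and Xaf1 (0.75) after thinning, of Rsad2 (0.55) with 2 UMIs per pair, of Hk2 (0.89) under the stricter bar, and of the erythroid list (median 1.48) measured by the KO libraries. The cause was not tested. After thinning, Timm23 had no bone marrow UMI and its bound (log2 ratio 0.91) did not reach 2-fold, and Mmp9 was no longer measured. The depth of the bone marrow side limits all ratios, since 50 CPM rests on 8 UMIs there.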
